A study of Mus musculus with 24 samples.

Results

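The interferon-stimulated genes and STING were examined as a list of 47 genes, chosen by symbol and grouped by role. The list holds STING (written Tmem173 in the annotation) with 4 other nucleic acid sensors or their partners, interferon-β and both chains of its receptor, 3 interferon regulatory factors, 20 antiviral effectors, 5 enzymes that attach or remove ISG15, ubiquitin or ADP-ribose, 8 interferon-induced GTPases, and 3 genes for chemokines and PD-L1. All 47 were found among the 55471 genes of the count tables, and 45 of them passed the filter on low counts that left 17522 genes for testing. Ifnb1 and Cxcl9 did not pass it. RNA-seq was available for 24 libraries of 3T3 mouse embryonic fibroblasts (MEFs, an immortalized fibroblast line) in 8 groups of 3 libraries. Wild-type MEFs, Lkb1-/- MEFs, which lack the kinase LKB1 (gene Stk11), and 2 clones that lack both LKB1 and the coactivator CRTC2, LKB1/CRTC2 double knockout clones A1 and A2, were each left untreated (ctrl) or given the inflammatory cytokine IL-1β for 6 hours. The wild-type and Lkb1-/- cells are separate 3T3 lines, and each double knockout clone was grown from a single cell after Cas9 editing. The genotype and the history of the line can therefore not be told apart in any comparison between genotypes. The labels do not say whether libraries of a group came from separate cultures, so p-values measure the spread between these libraries, which may be technical.

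Type I interferons bind the receptor formed by IFNAR1 and IFNAR2. The bound receptor activates JAK kinases, and a complex that holds STAT2 and IRF9 then binds an element called ISRE in the promoters of interferon-stimulated genes. Interferon genes are themselves induced when sensors recognize nucleic acid in the cytosol, RIG-I (Ddx58) and MDA5 (Ifih1) for RNA, and cGAS for DNA, which signals through STING to the kinase TBK1. Many interferon-stimulated genes hold a low level in unstimulated cells, and IRF7, which drives further interferon production, is itself one of them.

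Libraries held between 38842901 and 48594394 counts on genes. Levels below are in CPM, counts per 1000000 of the library size after TMM adjustment, in which 1 count corresponds to 0.0201 to 0.0261 CPM. Stk11 averaged 86.0 ± 1.68 CPM (SD, n = 3) in untreated wild-type and 17.3 ± 1.24 CPM in untreated Lkb1-/- MEFs, and Crtc2 averaged 81.1 CPM in untreated Lkb1-/- MEFs and 42.9 and 49.8 CPM in clones A1 and A2. Of 10 genes that IL-1β is known to induce through NF-κB, such as Cxcl1 and Nfkbia, all 10 were higher with IL-1β in wild-type and in Lkb1-/- MEFs, 8 in clone A1 and 9 in clone A2. The summed level of 9 fibroblast markers was 5384 to 9298 CPM, although 2 of them, Thy1 and Lum, stayed under 1 CPM in every library. Single fibroblast markers moved far and in opposite directions between the lines, with means in untreated wild-type and Lkb1-/- MEFs of 0.411 and 218 CPM for Dcn, 4.58 and 342 CPM for Pdgfra, and 780.1 and 63.0 CPM for Col1a2. Of 8 immune markers, 6, among them Ptprc, Adgre1, Itgam, Lyz2 and Cd3e, were under 1 CPM in every library, as were all 4 epithelial markers and 3 of 4 endothelial markers. The other immune markers were Cd68, at 2.37 to 6.82 CPM, and Csf1r. Means in untreated wild-type and Lkb1-/- MEFs were 0.0464 and 1.68 CPM for Csf1r, and 0.390 and 2.60 CPM for the endothelial marker Kdr. The summed level of the immune list was 2.49 to 8.96 CPM, and that of the endothelial list 0.370 to 3.85 CPM, with the lowest values of both in wild-type libraries.

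The clearest feature of the 47 genes was a spread among the wild-type libraries. In untreated wild-type MEFs, 42 of the 45 genes tested were highest in replicate 3, against 34.4% of all genes, and in IL-1β-treated wild-type MEFs all 45 were, against 33.9%. In the other 6 groups 22 to 36 of the 45 were, against 36.8% to 40.7% of all genes, with the 36 in untreated clone A2, where 12 were also more than 2-fold above replicate 1 (3.17% of all genes). Replicate 3 exceeded replicate 1 by more than 2-fold for 36 of 45 genes without treatment, against 2.47% of all genes tested, and for 39 of 45 with IL-1β, against 2.11% of all genes. The median log2 difference between replicates 3 and 1 (after adding 0.1 to each CPM) was 1.84 without and 2.21 with IL-1β, and 0.00 over all genes in both. In Lkb1-/- MEFs it was 0.36 and 0.44, in clone A1 0.31 and 0.24, and in clone A2 0.57 and 0.63. Because both wild-type replicate 3 libraries stand apart for these genes, results against wild-type MEFs are also given without these libraries, a choice made after seeing the data.

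Isg15, a ubiquitin-like protein that is attached to other proteins, illustrates the spread. Its level in untreated wild-type MEFs was 3.30, 5.43 and 25.1 CPM in replicates 1, 2 and 3, and with IL-1β 8.69, 19.1 and 72.7 CPM. In Lkb1-/- MEFs it was 2.92, 4.64 and 5.81 CPM untreated and 4.03, 5.73 and 5.95 CPM with IL-1β. The untreated wild-type replicate 3 thus lay above 2 of the 3 IL-1β-treated wild-type libraries. All Lkb1-/- libraries lay between 2.92 and 5.95 CPM, and untreated wild-type replicates 1 and 2 lay within the same range. The summed immune markers were 4.04, 2.49 and 3.63 CPM in untreated wild-type replicates 1, 2 and 3 and 5.13, 3.41 and 4.34 CPM in the IL-1β-treated ones, highest in replicate 1 both times, and the summed endothelial markers were 0.424, 0.437 and 0.678 CPM and 0.370, 0.490 and 0.595 CPM, highest in replicate 3. Ifnb1 had no more than 1 count in any of these libraries. Whether other cells had a part in the spread was not tested.

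**Figure D1:**
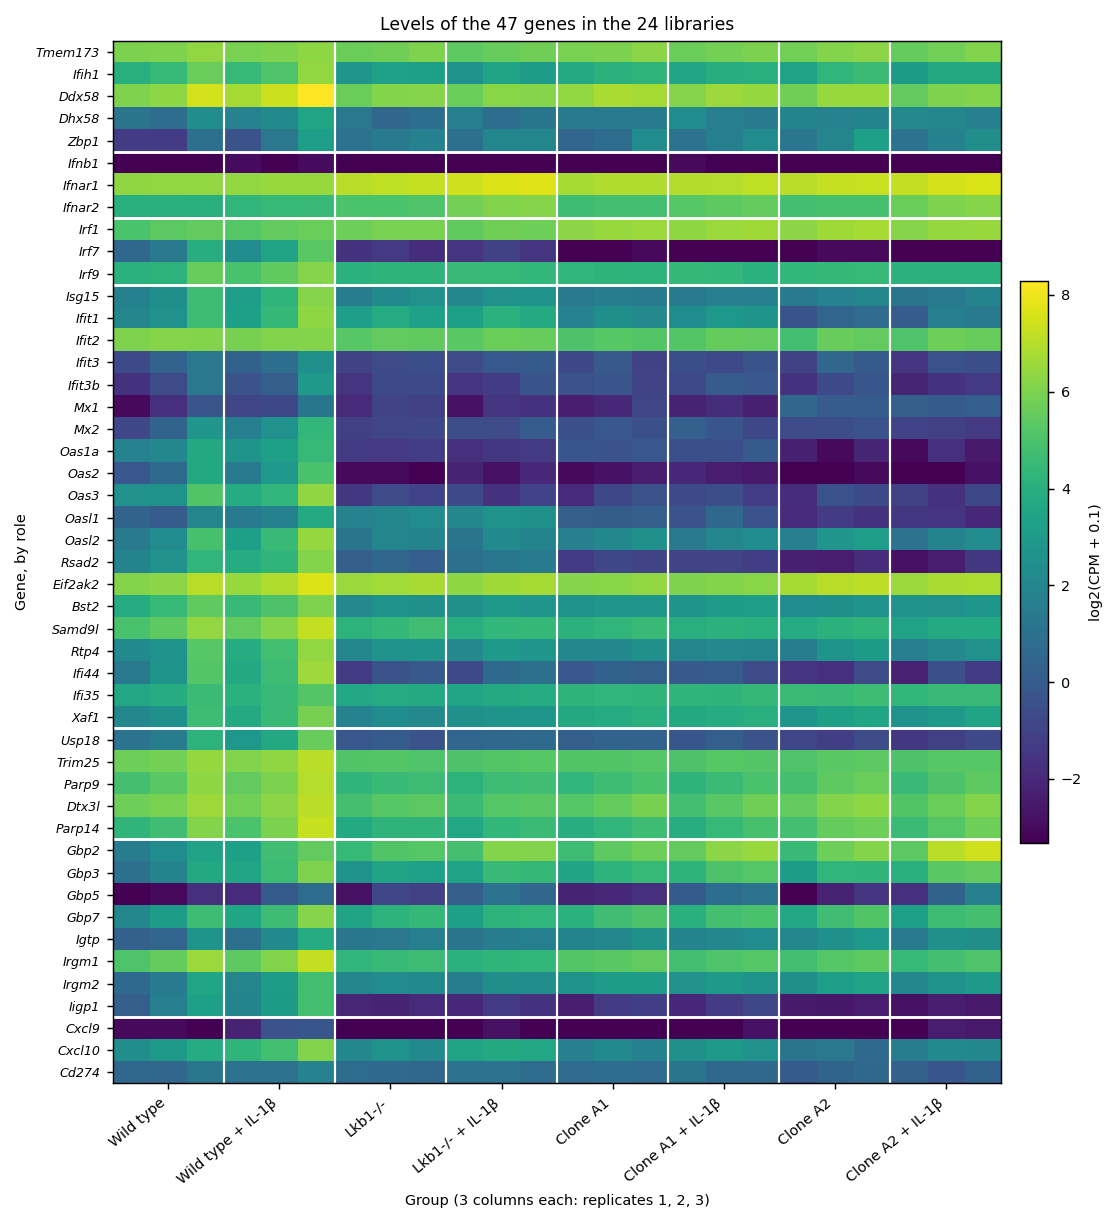
Level of each of the 47 genes (rows, grouped by role) in each of the 24 libraries (columns, 3 per group in the order of replicates 1, 2 and 3), as log2(CPM + 0.1). The third column of both wild-type groups is the brightest for nearly every gene, Ifnb1 is dark throughout, and Irf7, Oas2, Oas3 and Iigp1 are dark in all Lkb1-/- and clone libraries.

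Many promoters of these genes hold the ISRE. Interferon-stimulated genes are known for this element, so its share describes the list and is not a separate result. RefSeq promoter windows on GRCm38.p6, from 250 bases before to 50 bases after the transcription start, were at hand for 36 of the 47 genes. The core of the ISRE, written here as GAAANNGAAA on either strand, was found in 19 of these 36 (52.8%) and in 3.99% of 27025 genes with a window. The GAS element of the interferon-γ response, TTCNNNGAA, was found in 12 of 36 (33.3%, against 9.55% of all genes), in 1 of them sharing bases with an ISRE core, and the loose κB site GGGNNNNNCC on either strand in 24 of 36 (66.7%, against 53.5%), never sharing bases with an ISRE core. An ISRE core was present in all 7 GTPase genes with a window, in 9 of 16 antiviral effectors and in none of the windows of Irf1, Irf7, Irf9, Ifnar1 and Ifnar2. No match says only that these letters are not in this window. The stretches before the start of 7 genes described below are shown on the strand of the gene, 5′ to 3′, with the ISRE cores in capitals, as examples of antiviral genes, a GTPase and a chemokine whose windows hold a core and whose levels are given below. The end of each stretch is the base before the transcription start, and the stretches are 150 bases long, or 220 for Cxcl10, whose match lies further upstream.
Isg15: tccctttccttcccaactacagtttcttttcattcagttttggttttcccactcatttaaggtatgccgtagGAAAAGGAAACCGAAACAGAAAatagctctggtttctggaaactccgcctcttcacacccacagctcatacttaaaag
Ifit1: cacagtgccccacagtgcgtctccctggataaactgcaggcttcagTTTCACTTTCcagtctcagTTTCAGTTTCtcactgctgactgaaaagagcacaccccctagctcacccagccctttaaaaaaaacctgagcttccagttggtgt
Oas1a: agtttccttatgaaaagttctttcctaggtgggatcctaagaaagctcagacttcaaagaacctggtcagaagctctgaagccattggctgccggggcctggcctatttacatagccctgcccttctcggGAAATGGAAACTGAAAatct
Oas3: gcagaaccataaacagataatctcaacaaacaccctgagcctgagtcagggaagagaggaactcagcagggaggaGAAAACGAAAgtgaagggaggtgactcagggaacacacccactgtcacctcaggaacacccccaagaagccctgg
Rsad2: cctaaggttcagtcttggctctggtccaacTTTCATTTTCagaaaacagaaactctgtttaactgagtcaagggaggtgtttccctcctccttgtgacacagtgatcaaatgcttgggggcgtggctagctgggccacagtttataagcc
Gbp2: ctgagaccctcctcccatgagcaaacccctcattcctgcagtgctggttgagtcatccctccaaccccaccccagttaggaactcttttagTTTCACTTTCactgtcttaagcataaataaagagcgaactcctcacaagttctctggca
Cxcl10: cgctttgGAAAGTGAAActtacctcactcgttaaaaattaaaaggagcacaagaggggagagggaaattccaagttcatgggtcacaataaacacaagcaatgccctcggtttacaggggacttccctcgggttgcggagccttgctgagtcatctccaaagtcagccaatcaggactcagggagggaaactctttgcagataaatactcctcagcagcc

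These stretches lie at chr4:156200819-156200968 on the reverse strand (Isg15), chr19:34640739-34640888 on the forward strand (Ifit1), chr5:120907526-120907675 on the reverse strand (Oas1a), chr5:120777660-120777809 on the reverse strand (Oas3), chr12:26456453-26456602 on the reverse strand (Rsad2), chr3:142620513-142620662 on the forward strand (Gbp2) and chr5:92348890-92349109 on the reverse strand (Cxcl10). Isg15 has 3 overlapping cores and Oas1a 2, while Ifit1 has 2 separate ones. Among the 36 genes, median log2 fold changes of the 19 with an ISRE core and the 15 tested genes without it are given as a description without a test. Between IL-1β-treated and untreated wild-type MEFs they were 1.37 and 0.60. For the same response of Lkb1-/- MEFs they were 0.06 and 0.25, in the other order. For Lkb1-/- against wild-type MEFs they were −0.85 and −0.73 untreated and −1.67 and −1.19 with IL-1β.

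The first comparison asked how these genes differ between Lkb1-/- and wild-type MEFs without a stimulus. Of the 45 genes tested, 21 were lower and 4 higher in Lkb1-/- MEFs (edgeR quasi-likelihood test, Benjamini-Hochberg FDR under 0.05). The background was high, since 25.8% of all genes were lower and 30.1% higher in the same comparison. The median log2 fold change was −0.93 over the 45 genes and 0.04 over all genes. The 20 antiviral effectors held 12 of the lower genes and none of the higher, and all 5 ISG15, ubiquitin and ADP-ribose enzymes were lower. The higher genes were both receptor chains, Irf1 and Gbp2. Without both wild-type replicate 3 libraries, 17 genes were lower and 12 higher, against 26.7% and 26.1% of all genes, and the median was −0.23. In these bulk libraries, fewer cells that express a gene and less RNA per cell cannot be told apart.

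The genes that differed most had very little transcript in Lkb1-/- MEFs. The 2′-5′-oligoadenylate synthetases make the signal that activates RNase L. Oas3 was at 5.72, 6.10 and 34.5 CPM in the untreated wild-type libraries and 0.272, 0.534 and 0.405 CPM in the Lkb1-/- ones (log2 fold change −5.25, SE 0.79, edgeR FDR = 7.6e-06). Oas1a was at 3.46, 4.03 and 12.6 CPM and 0.294, 0.278 and 0.333 CPM (log2 fold change −4.46, SE 0.55, edgeR FDR = 4.9e-07). Every wild-type library, the lowest included, lay above every Lkb1-/- library for both genes. Oas2 had 35, 63 and 510 counts in the wild-type libraries and 1, 1 and 0 in the Lkb1-/- ones, a ratio of 311 with a 95% exact counting interval from 85.6 to 2570. Counting intervals cover counting error only. Most of the wild-type Oas2 counts came from replicate 3, so this ratio rests largely on that library. Per kilobase of exon, the wild-type mean of Oas2 was 1.16 CPM, and 0.251 CPM in replicates 1 and 2 alone, against 0.00343 CPM in Lkb1-/- MEFs.

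The same held for several other antiviral genes. Rsad2, which encodes viperin, an enzyme that makes a chain-terminating nucleotide, was at 3.57, 5.71 and 19.6 CPM in wild-type and 1.04, 1.32 and 1.00 CPM in Lkb1-/- MEFs (log2 fold change −3.09, SE 0.58, edgeR FDR = 0.0001). Ifi44 was at 2.46, 6.33 and 36.4 CPM and 0.294, 0.673 and 0.833 CPM (log2 fold change −4.64, SE 0.89, edgeR FDR = 0.00014). Usp18, the protease that removes ISG15 and restrains receptor signalling, was at 2.01, 2.81 and 18.0 CPM and 0.792, 0.951 and 0.690 CPM (log2 fold change −3.21, SE 0.70, edgeR FDR = 0.00053). In each, the groups did not overlap, although replicate 3 was more than 5 times replicate 1 among the wild-type libraries. Iigp1, a GTPase that attacks vacuoles of intracellular parasites, was at 1.03, 3.08 and 9.57 CPM and 0.136, 0.116 and 0.167 CPM (log2 fold change −5.00, SE 0.83, edgeR FDR = 2.5e-05). These differences were smaller without both wild-type replicate 3 libraries, at −3.68 for Oas1a, −2.11 for Rsad2, −2.93 for Ifi44, −1.62 for Usp18 and −3.91 for Iigp1 on the log2 scale, and all 5 genes were still called.

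Irf7 (chr7:141262706-141266481, GRCm38) was at 1.43, 2.42 and 14.8 CPM in untreated wild-type MEFs and 0.226, 0.278 and 0.190 CPM in Lkb1-/- MEFs (log2 fold change −4.72, SE 0.94, edgeR FDR = 0.00035). Even the lowest wild-type library had more than 5 times the level of the highest Lkb1-/- library. Irf9, the DNA-binding partner of STAT2, was at 16.7, 17.8 and 47.7 CPM and 16.9, 18.6 and 18.6 CPM, which did not pass the test (log2 fold change −0.60, SE 0.29, edgeR FDR = 0.086). Irf1, an activator that interferon-γ and NF-κB both induce, was at 31.8, 41.3 and 44.4 CPM and 52.9, 61.9 and 61.1 CPM, so it was higher in every Lkb1-/- library (log2 fold change 0.58, SE 0.14, edgeR FDR = 0.0014).

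Genes with less extreme differences included the membrane tether Bst2 (−2.31, SE 0.34), the ubiquitin ligase Trim25, which acts on RIG-I (−0.93, SE 0.19), Ifit2, which binds foreign RNA (−0.73, SE 0.16), and the helicase gene Ifih1 (−1.69, SE 0.43), all lower as log2 fold changes and without overlap between the groups. Mx2, Oasl2, Samd9l, Rtp4, Xaf1, Parp9, Dtx3l, Parp14 and Irgm1 were also lower. The remaining genes did not pass the test, among them Isg15 (log2 fold change −1.33, SE 0.62, edgeR FDR = 0.074), Ifit1 (−0.05), Mx1 (0.00) and Eif2ak2 (0.10). Without both wild-type replicate 3 libraries, Oas3 (log2 fold change −3.93, SE 0.42, edgeR FDR = 1.9e-07) and Irf7 (log2 fold change −3.09, SE 0.43, edgeR FDR = 2.1e-05) were still lower, whereas Oasl2, Xaf1, Rtp4 and Parp14 were no longer called. Eif2ak2, Gbp3, Gbp7, Ifit1, Igtp, Irgm2, Oasl1 and Zbp1, none of them called with all libraries, were then higher in Lkb1-/- MEFs. Isg15 had a log2 fold change of −0.03 without them and was not called.

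The GTPases were split. Gbp2, a guanylate-binding protein that coats intracellular microbes, was at 2.97, 4.83 and 10.3 CPM in untreated wild-type and 21.9, 34.6 and 37.2 CPM in untreated Lkb1-/- MEFs, higher in the latter without overlap (log2 fold change 2.39, SE 0.61, edgeR FDR = 0.0021). Irgm1 and Iigp1 were lower, and the other 5 GTPases did not pass the test. Igtp and Irgm2 share exon sequence with each other on the same strand, as do Ifnar2, Irf9, Rtp4, Parp14 and Gbp7 with genes that are not among the 47, and pairs that fell on both genes were not counted, so their levels are uncertain to that extent. The same applies to Ifit3 and Ifit3b, which are nearly identical copies.

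The receptor genes stood out by their small spread. Ifnar1 (chr16:91485238-91507441) was at 81.2, 84.9 and 84.3 CPM in untreated wild-type and 132, 145 and 153 CPM in untreated Lkb1-/- MEFs (log2 fold change 0.78, SE 0.10, edgeR FDR = 1.3e-06). Ifnar2 (chr16:91372783-91405589) was at 15.5, 16.3 and 15.9 CPM and 31.5, 32.1 and 33.9 CPM (log2 fold change 1.03, SE 0.10, edgeR FDR = 1.9e-08). Both were higher in every Lkb1-/- library, and neither was highest in the untreated wild-type replicate 3. Ifnb1, their ligand, had no count in any untreated library and at most 1 count in any IL-1β-treated library. A count of 0 allows up to 3 counts, or 0.0604 to 0.0782 CPM. Of 9 further interferon genes (Ifna1, Ifna2, Ifna4, Ifna5, Ifnk, Ifne, Ifng, Ifnl2 and Ifnl3), none passed the filter on low counts.

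STING, the adaptor of cytosolic DNA sensing, differed less than most of the genes. Tmem173 was at 64.4, 65.3 and 84.1 CPM in untreated wild-type and 50.4, 54.5 and 65.1 CPM in untreated Lkb1-/- MEFs, and the groups overlapped (log2 fold change −0.33, SE 0.15, edgeR FDR = 0.068). With IL-1β it was at 61.2, 66.3 and 79.7 CPM and 42.4, 48.3 and 54.7 CPM, lower in Lkb1-/- MEFs and without overlap (log2 fold change −0.51, SE 0.15, edgeR FDR = 0.0064). Per kilobase of exon, the level of Tmem173 in untreated Lkb1-/- MEFs was 20.7 CPM, second among the 47 genes after Ifnar1 with 24.1 CPM and followed by Eif2ak2 with 19.5 and Irf1 with 14.8 CPM. In untreated wild-type MEFs the mean levels per kilobase were led by Bst2 with 29.3 CPM, Tmem173 with 26.0 CPM and Eif2ak2 with 18.2 CPM, while Isg15, with 14.9 CPM, was sixth. With IL-1β, Isg15 was second there with 44.3 CPM after Bst2 with 45.0 CPM, and these means did not differ beyond the spread of either gene. In the mean of wild-type replicates 1 and 2 alone, Tmem173 led untreated with 23.7 CPM per kilobase and Isg15 was at rank 14 with 5.78, and with IL-1β Bst2 led with 31.1 and Isg15 was at rank 5 with 18.4. In Lkb1-/- MEFs with IL-1β, Ifnar1 (33.0 CPM per kilobase) and Gbp2 (22.0) led the list.

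**Figure D2:**
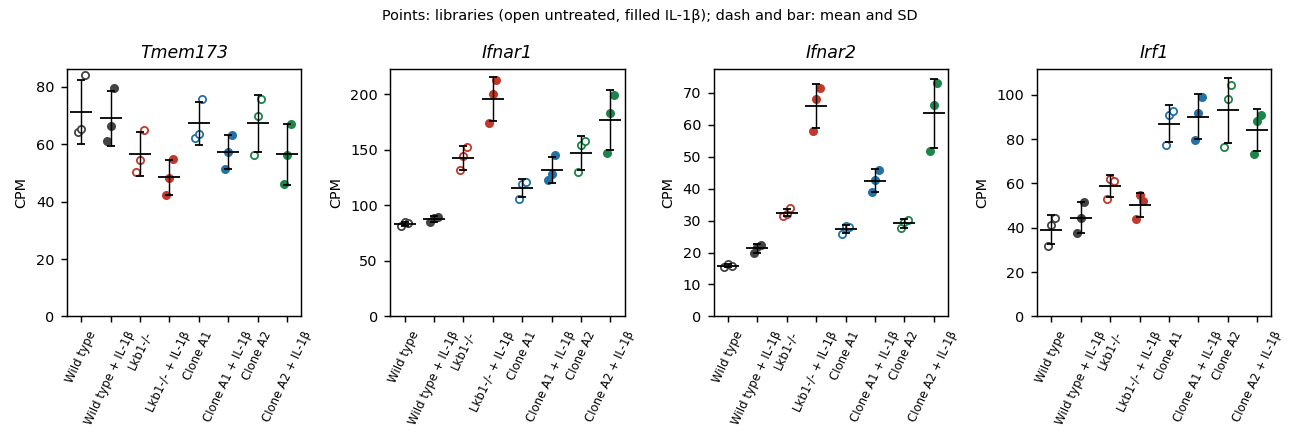
CPM of Tmem173, Ifnar1, Ifnar2 and Irf1 in each library (points, open untreated and filled IL-1β) with the mean and SD of each group of 3 libraries, from 0. Ifnar1 and Ifnar2 are above wild type in all Lkb1-/- and clone libraries, Irf1 is highest in the clones, and Tmem173 overlaps between most groups.

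With IL-1β, the question was the same in stimulated cells, and more of the genes differed. Of 45 genes, 34 were lower and 2 higher in Lkb1-/- than in wild-type MEFs (edgeR), against 27.1% and 30.2% of all genes. The median log2 fold change was −1.67 over the 45 genes and 0.03 over all genes. The lower genes were 19 of the 20 antiviral effectors, all 5 enzymes, 4 of the 5 sensor genes including STING, Irf7 and Irf9, 3 of 8 GTPases, and Cxcl10. The higher genes were Ifnar1 (log2 fold change 1.16, SE 0.10, edgeR FDR = 3.8e-09) and Ifnar2 (log2 fold change 1.63, SE 0.10, edgeR FDR = 1.4e-11). The replicate numbers paired these libraries, and with the number as a block 37 genes were lower and 4 higher, where 65.9% of all genes were called. Without both wild-type replicate 3 libraries, 28 were lower and 4 higher, against 26.7% and 27.0% of all genes, with a median of −1.07. Eif2ak2, Ifit1, Ifit3, Ifit3b, Irgm2 and Mx1 were then no longer called, and Gbp2 and Oasl1 were higher.

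Levels with IL-1β were far apart for several of the antiviral genes. Isg15, with 8.69, 19.1 and 72.7 CPM in wild-type and 4.03, 5.73 and 5.95 CPM in Lkb1-/- MEFs, now passed the test (log2 fold change −2.67, SE 0.63, edgeR FDR = 0.00099). Oas3 was at 14.6, 19.8 and 81.9 CPM and 0.504, 0.229 and 0.408 CPM (log2 fold change −6.68, SE 0.81, edgeR FDR = 4.2e-07). Oas2 was at 2.59, 7.07 and 30.5 CPM and 0.120, 0.0415 and 0.144 CPM (log2 fold change −7.03, SE 1.10, edgeR FDR = 1.2e-05). In all 3 the groups did not overlap, and Isg15 came closest. Without both wild-type replicate 3 libraries, Isg15 was still lower (log2 fold change −1.44, SE 0.30, edgeR FDR = 0.00041), as was Oas3 (log2 fold change −5.54, SE 0.43, edgeR FDR = 2.1e-09). For Oas2, the wild-type mean per kilobase of exon was 3.01 CPM, and 1.09 CPM in replicates 1 and 2 alone, against 0.0229 CPM in Lkb1-/- MEFs.

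The regulators and the sensor genes followed. Irf7 was at 4.79, 10.8 and 39.8 CPM and 0.240, 0.395 and 0.240 CPM (log2 fold change −5.95, SE 0.93, edgeR FDR = 2.9e-05), and Irf9 at 30.6, 43.5 and 72.9 CPM and 22.5, 21.4 and 20.4 CPM (log2 fold change −1.19, SE 0.29, edgeR FDR = 0.0014). Ddx58, encoding RIG-I, was at 106, 162 and 311 CPM and 48.7, 74.0 and 73.0 CPM (log2 fold change −1.56, SE 0.35, edgeR FDR = 0.00066), and Cxcl10, a chemokine for activated T cells, at 19.0, 26.8 and 68.2 CPM and 10.8, 13.2 and 11.9 CPM (log2 fold change −1.67, SE 0.37, edgeR FDR = 0.00058). No Lkb1-/- library reached the lowest wild-type one for any of these genes. Irf1 was at 37.5, 44.4 and 51.6 CPM and 44.1, 54.6 and 52.1 CPM and did not pass the test (log2 fold change 0.18, SE 0.14, edgeR FDR = 0.31) except with the replicate block (log2 fold change 0.18, SE 0.05, edgeR FDR = 0.0041). Cxcl9, which was too low to be tested, had 5, 29 and 29 counts in the wild-type libraries and 0, 2 and 0 in the Lkb1-/- ones, a ratio of 34.0 with a 95% exact counting interval from 9.02 to 286.

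Oas1a (−5.61), Iigp1 (−5.87), Ifi44 (−5.11), Usp18 (−4.06) and Rsad2 (−3.96) had log2 fold changes under −3.5 as well, and Bst2 (−2.63), Ifih1 (−2.46), Trim25 (−1.40) and Ifit2 (−0.51) smaller ones. In the fit that left out both wild-type replicate 3 libraries, Oas1a was at −4.97, Iigp1 at −4.73, Ifi44 at −3.91, Usp18 at −2.89 and Rsad2 at −2.96, all still called, as were Irf7 (−4.75), Irf9 (−0.82), Ddx58 (−1.07) and Cxcl10 (−0.97). The call for Ifit2 was lost without IL-1β-treated Lkb1-/- replicate 1 (edgeR FDR = 0.062). Dhx58, encoding the RIG-I-like protein LGP2, was lower as well (−1.50). Oasl1, which encodes a synthetase-like protein without the enzyme activity, was the antiviral effector that did not pass (−0.29). Gbp2, Gbp3, Gbp5, Gbp7 and Igtp, the nucleic acid sensor gene Zbp1 and Cd274, which encodes PD-L1, did not pass either.

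**Figure D3:**
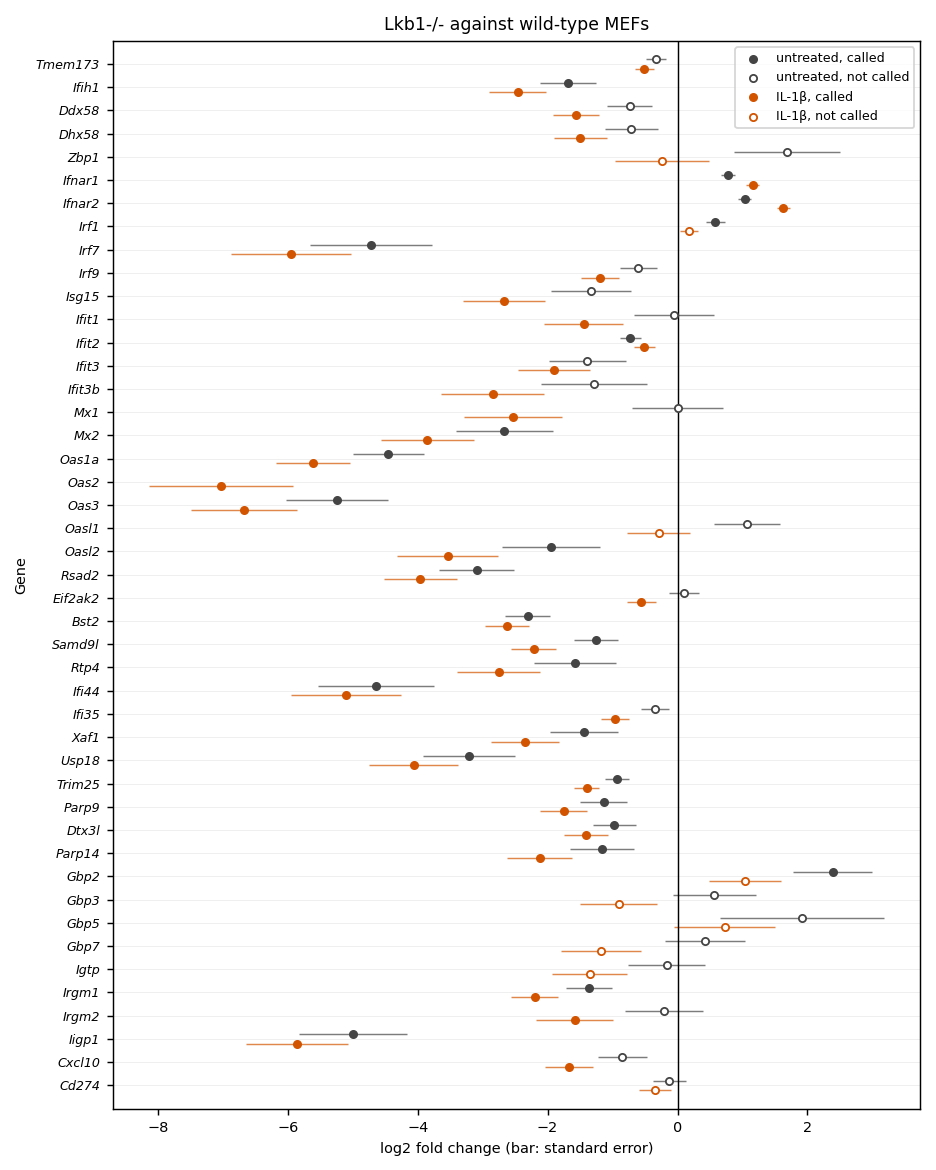
Log2 fold change of Lkb1-/- against wild-type MEFs for the 45 genes tested, untreated (grey) and with IL-1β (orange), with SE bars; filled points passed FDR under 0.05. Most points lie left of 0 and further left with IL-1β, and Ifnar1 and Ifnar2 lie to the right in both. Oas2 without treatment is not drawn because the Lkb1-/- libraries held no more than 1 count each.

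The next comparison was the response to IL-1β within each genotype. In wild-type MEFs, 3 of 45 genes were called, all higher, namely Gbp3, Cxcl10 and Ifnar2, against 1.53% of all genes. None was lower, against 0.731% of all genes. Another 31 genes had an unadjusted p under 0.05 without passing the FDR, since 34 of the 45 did in all, against 2001 of 17522 genes. The replicate numbers paired these libraries (correlations of same-numbered deviations from 0.13 to 0.33), and with the number as a block 34 of 45 genes were higher with IL-1β and none lower, while 9.3% of all genes were called in either direction. With a separate block for each genotype, chosen after seeing the data, 42 were higher and none lower, and 16.1% of all genes were called. Without both wild-type replicate 3 libraries, 13 were higher and none lower, against 0.949% and 0.324% of all genes, and leaving out the untreated one alone left 27 higher, against 1.4%.

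Within the same replicate number, IL-1β-treated wild-type MEFs held a higher level than untreated ones in all 3 numbers for 43 of 45 genes, against 24.8% of all genes. The exceptions were Tmem173 and Ifit2. The median log2 ratio over the 45 genes was 0.98, 1.33 and 1.19 in numbers 1, 2 and 3. Isg15 was 2.63, 3.52 and 2.89 times higher in numbers 1, 2 and 3, and Irf7 3.35, 4.48 and 2.68 times. These ratios spanned less than 2-fold, whereas the untreated levels differed more than 7-fold between replicates 1 and 3. For Isg15 the fit without a block gave no call (log2 fold change 1.58, SE 0.60, edgeR FDR = 0.25) and the fit with a block did (log2 fold change 1.55, SE 0.39, edgeR FDR = 0.012). Rsad2 moved likewise, from log2 fold change 1.86, SE 0.50, edgeR FDR = 0.06 without to log2 fold change 1.85, SE 0.29, edgeR FDR = 0.00013 with the block.

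Among the genes called without a block, Gbp3, another guanylate-binding protein, was at 1.83, 3.57 and 13.1 CPM untreated and 11.1, 24.3 and 66.6 CPM with IL-1β in wild-type MEFs (log2 fold change 2.48, SE 0.64, edgeR FDR = 0.043). Cxcl10 was at 5.07, 7.32 and 14.7 CPM and 19.0, 26.8 and 68.2 CPM (log2 fold change 2.08, SE 0.38, edgeR FDR = 0.0024). Ifnar2 was at 15.5, 16.3 and 15.9 CPM and 19.7, 21.8 and 22.5 CPM (log2 fold change 0.42, SE 0.10, edgeR FDR = 0.027). The groups overlapped for Gbp3, through untreated replicate 3, and not for the other two. The call for Gbp3 was lost without untreated wild-type replicate 1 or 2 or IL-1β-treated wild-type replicate 2 or 3 (edgeR FDR = 0.06 to 0.29), and that for Ifnar2 without untreated wild-type replicate 1 or 2 or 3 or IL-1β-treated wild-type replicate 2 or 3 (edgeR FDR = 0.072 to 0.11).

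**Figure D4:**
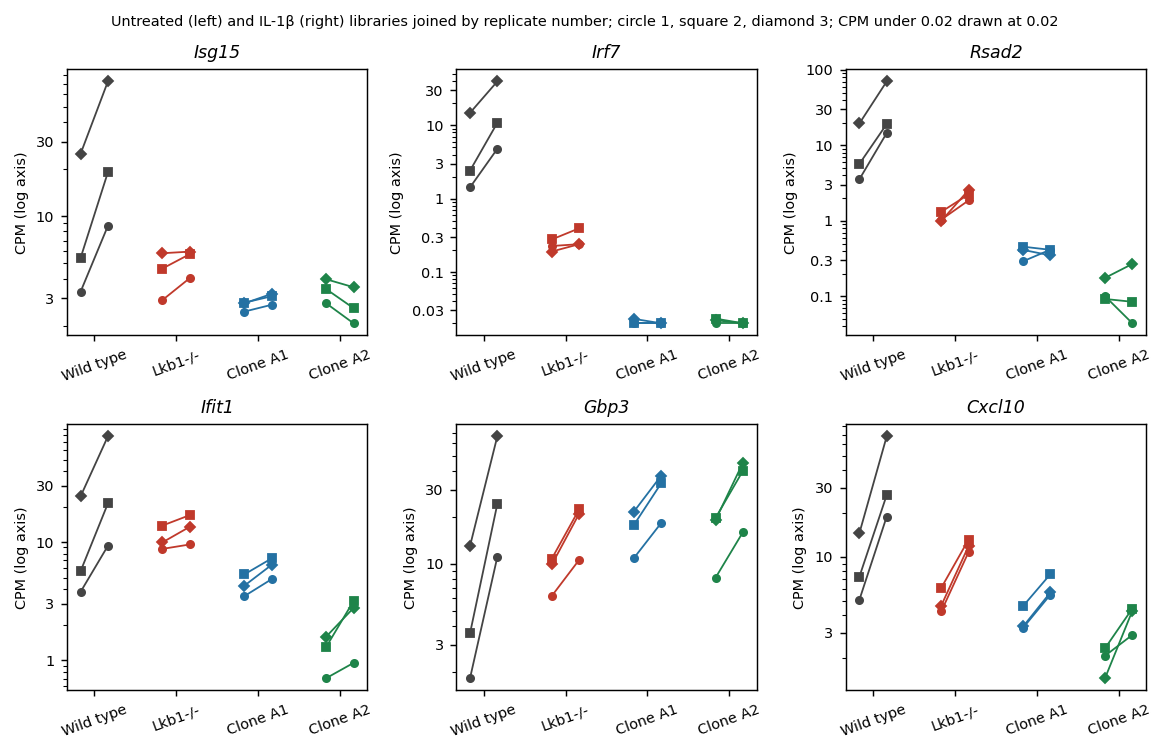
CPM of 6 genes on log axes, with the untreated and the IL-1β-treated library of the same replicate number joined by a line, for each genotype. In wild-type MEFs all lines rise in parallel from different starting levels. In Lkb1-/- MEFs and the clones the Isg15 and Irf7 lines lie low and close together, while the Gbp3 and Cxcl10 lines rise in every genotype.

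In Lkb1-/- MEFs, IL-1β raised 2 of 45 genes and lowered none, against 2.65% and 2.09% of all genes. These were Ifnar1, from 132, 145 and 153 to 174, 201 and 213 CPM (log2 fold change 0.45, SE 0.10, edgeR FDR = 0.0088), and Ifnar2, from 31.5, 32.1 and 33.9 to 58.0, 68.1 and 71.3 CPM (log2 fold change 1.02, SE 0.10, edgeR FDR = 7e-07). With the replicate block 6 were higher and 2 lower, adding Cxcl10, Gbp2, Gbp3 and Gbp5 as higher and Irf1 and Tmem173 as lower, while 14.8% of all genes were called. The median log2 ratio within numbers was 0.06, 0.23 and 0.20, and 25 of 45 genes were higher in all 3 numbers, against 21.4% of all genes. Isg15 was 1.38, 1.24 and 1.02 times its untreated level in numbers 1, 2 and 3.

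In clone A1, Ifnar2 alone was higher with IL-1β (25.9, 28.1 and 28.0 CPM against 38.8, 42.6 and 45.9 CPM, log2 fold change 0.63, SE 0.10, edgeR FDR = 0.00066), where 1.2% of all genes were higher and 0.788% lower. In clone A2, Ifnar2 (log2 fold change 1.12, SE 0.10, edgeR FDR = 1.8e-07) and Gbp5 (log2 fold change 3.65, SE 0.98, edgeR FDR = 0.029) were higher, where 2.81% of all genes were higher and 2.86% lower. Gbp5, which takes part in inflammasome assembly, was at 0, 0.116 and 0.242 CPM untreated and 0.199, 1.10 and 3.23 CPM with IL-1β, so it was low and varied between numbers. Its call was lost without untreated clone A2 replicate 1 or 2 or IL-1β-treated clone A2 replicate 3 (edgeR FDR = 0.064 to 0.18). No gene was lower in either clone. With the replicate block, clone A1 had 4 higher genes and 1 lower, against 3.68% and 5.94% of all genes, and clone A2 5 and 2, against 7.27% and 10.6%, with Gbp2, Gbp5, Ifnar1 and Ifnar2 higher and Tmem173 lower in both. Within numbers, clone A2 went the other way from wild type for many genes. There, 23 of 45 genes were lower with IL-1β in all 3 numbers, against 28.7% of all genes, and the median log2 ratio was −0.22, −0.17 and −0.19.

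A test of the difference between responses called none of the 45 genes between Lkb1-/- and wild-type MEFs, where 0.245% of all genes were called (0.137% higher and 0.108% lower). None was called between either clone and Lkb1-/- MEFs either, where 0.0285% of all genes (clone A1) and 0.0% (clone A2) were. At an unadjusted p under 0.05, there were 3, 1 and 0 of the 45 genes, against 985, 433 and 388 of all 17522, and DESeq2 called 1, 0 and 0, against 0.74%, 0.0727% and 0.0744% of all genes. The replicate block, which these numbers allow, called 5 genes between Lkb1-/- and wild-type MEFs. Ifnar1 and Ifnar2 responded more and Gbp2, Gbp7 and Irf1 less in Lkb1-/- MEFs, where 1.77% of all genes were called. With a separate block for each genotype, 31 genes responded less and 2 more in Lkb1-/- MEFs, where 5.72% of all genes were called. In that fit the difference for Isg15 was −1.34 (log2, SE 0.13, edgeR FDR = 8.5e-07), and for Ifnar2 it was 0.59 (log2, SE 0.09, edgeR FDR = 0.00011).

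The double knockout clones were compared with Lkb1-/- MEFs to see what changes when CRTC2 is also lost. Both clone comparisons share the Lkb1-/- libraries. Untreated clone A1 had 2 higher and 2 lower genes among the 45, against 18.9% and 16.4% of all genes, and untreated clone A2 had 3 and 4, against 17.1% and 15.1%. With IL-1β, clone A1 had 2 higher and 4 lower genes, against 19.4% and 17.3%, and clone A2 3 and 5, against 17.1% and 15.8%. The medians over the 45 genes were 0.25, 0.24, 0.08 and −0.05 in the same order, and between 0.01 and 0.02 over all genes. All these shares of called genes were below the background. In the fit over all 24 libraries, the gene-wise spread included that of the wild-type libraries. With only the libraries of the compared groups, untreated clone A1 had 10 higher and 8 lower genes of 41 tested, against 20.6% and 22.5% of all genes, and untreated clone A2 13 and 6 of 42, against 14.8% and 13.7%. With the replicate block, which the numbers allow for 3 of these 4 comparisons, 14 genes were higher and 7 lower in untreated clone A2, against 24.5% and 21.4% of all genes. With IL-1β the block gave 9 and 8 in clone A1, against 25.8% and 23.3% (49.1% in either direction), and 10 and 10 in clone A2, against 24.4% and 22.1%. The genes that the block added in untreated clone A2 were Dhx58, Dtx3l, Gbp2, Gbp3, Ifih1, Igtp, Irgm1, Mx1, Parp9, Tmem173 and Xaf1 as higher and Ifnar2, Irf7 and Oas1a as lower. With IL-1β it added Gbp3, Gbp7, Ifih1, Irgm1, Oas1a, Tmem173 and Xaf1 as higher and Cxcl10, Eif2ak2, Ifit1 and Irf7 as lower in clone A1, and Dtx3l, Gbp2, Gbp3, Irgm1, Parp14, Parp9 and Tmem173 as higher and Ifi44, Ifnar1, Irf7, Samd9l and Usp18 as lower in clone A2.

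Oasl1 was lower in both clones. It was at 3.49, 3.97 and 4.71 CPM in untreated Lkb1-/- MEFs, 1.02, 0.984 and 1.03 CPM in clone A1 (log2 fold change −2.00, SE 0.53, edgeR FDR = 0.0054) and 0.161, 0.324 and 0.220 CPM in clone A2 (log2 fold change −4.11, SE 0.63, edgeR FDR = 3.9e-05). The 3 groups did not overlap, with clone A2 lowest. With IL-1β the log2 fold change was −2.53, SE 0.54 in clone A1 and −4.59, SE 0.64 in clone A2, and both were called.

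Rsad2 and Ifit1 followed the same order. Rsad2 was at 1.87, 2.24 and 2.57 CPM in IL-1β-treated Lkb1-/- MEFs, 0.417, 0.414 and 0.350 CPM in clone A1 (log2 fold change −2.49, SE 0.69, edgeR FDR = 0.0068) and 0.0441, 0.0850 and 0.269 CPM in clone A2 (log2 fold change −4.09, SE 0.82, edgeR FDR = 0.00057). Without treatment Rsad2 was lower in clone A2 (log2 fold change −3.16, SE 0.87, edgeR FDR = 0.0081) and not called in clone A1 (log2 fold change −1.52, SE 0.73, edgeR FDR = 0.11). Ifit1, which binds RNA without a proper cap, was at 8.76, 13.8 and 9.95 CPM in untreated Lkb1-/- MEFs, 3.49, 5.33 and 4.27 CPM in clone A1, which did not pass the test, and 0.705, 1.30 and 1.58 CPM in clone A2, which did (log2 fold change −3.19, SE 0.73, edgeR FDR = 0.0018). With IL-1β, Ifit1 was lower in clone A2 (log2 fold change −2.54, SE 0.68, edgeR FDR = 0.0062). Neither the call for Rsad2 in untreated clone A2 nor that in IL-1β-treated clone A1 was made by the newer quasi-likelihood method of edgeR.

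Irf7 was nearly absent from the clones. Its counts were 10, 12 and 8 in the untreated Lkb1-/- libraries, 0, 0 and 1 in clone A1 and 0, 1 and 1 in clone A2. With IL-1β they were 10, 19 and 10 in Lkb1-/- MEFs and 0 in all 6 clone libraries, at least 4.02-fold lower in clone A1 and at least 4.30-fold lower in clone A2 than in Lkb1-/- MEFs if 3 counts per library are taken as the floor. Untreated, Lkb1-/- MEFs had 29.3 times the level of clone A1 (95% exact counting interval 4.87 to 1195) and 16.0 times that of clone A2 (4.07 to 139). None of these 4 comparisons passed the test across all genes. With the replicate block, Irf7 was lower in untreated clone A2 (log2 fold change −3.89, SE 1.29, edgeR FDR = 0.019) and in both clones with IL-1β (edgeR FDR = 0.0032 and 0.0031). Every Lkb1-/- library had at least 8 counts and no clone library more than 1.

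The chemokine Cxcl10 was lower in clone A2, at 2.08, 2.34 and 1.45 CPM untreated (log2 fold change −1.35, SE 0.41, edgeR FDR = 0.016) and 2.89, 4.40 and 4.24 CPM with IL-1β (log2 fold change −1.64, SE 0.39, edgeR FDR = 0.0024), against 4.21, 6.13 and 4.62 and 10.8, 13.2 and 11.9 CPM in Lkb1-/- MEFs. In clone A1 it was at 3.24, 4.58 and 3.31 and 5.49, 7.62 and 5.69 CPM and was not called without a block. The call in untreated clone A2 was lost without untreated Lkb1-/- replicate 2 or untreated clone A2 replicate 3 (edgeR FDR = 0.065 to 0.078). Cd274 was lower in IL-1β-treated clone A2, at 1.08, 0.765 and 1.10 CPM against 2.04, 2.06 and 1.63 CPM (log2 fold change −0.96, SE 0.26, edgeR FDR = 0.0064), and in clone A1 it was at 2.08, 1.43 and 1.42 CPM and not called. The call in clone A2 was lost without IL-1β-treated clone A2 replicate 2 (edgeR FDR = 0.05).

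Irf1 moved in the opposite direction in both clones. Its level was 52.9, 61.9 and 61.1 CPM in untreated Lkb1-/- MEFs, 77.3, 90.8 and 92.4 CPM in clone A1 (log2 fold change 0.57, SE 0.14, edgeR FDR = 0.0033) and 76.2, 98.1 and 104 CPM in clone A2 (log2 fold change 0.66, SE 0.14, edgeR FDR = 0.001). With IL-1β it was 44.1, 54.6 and 52.1 CPM in Lkb1-/- MEFs, 79.4, 91.9 and 99.1 CPM in clone A1 (log2 fold change 0.84, SE 0.14, edgeR FDR = 8e-05) and 73.2, 88.1 and 90.9 CPM in clone A2 (log2 fold change 0.74, SE 0.14, edgeR FDR = 0.00036). Every clone library lay above every Lkb1-/- library of the same treatment.

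Other genes were higher in 1 clone or in part of the comparisons. Ifi35, which binds the related protein Nmi, was at 12.1, 14.0 and 13.4 CPM in untreated Lkb1-/- MEFs and 23.6, 22.7 and 25.5 CPM in clone A2, higher without overlap (log2 fold change 0.86, SE 0.21, edgeR FDR = 0.0036). It was also higher in clone A2 with IL-1β (log2 fold change 0.74, SE 0.21, edgeR FDR = 0.01), and in clone A1 with IL-1β (log2 fold change 0.59, SE 0.21, edgeR FDR = 0.036), a call lost without IL-1β-treated Lkb1-/- replicate 1 or 2 or IL-1β-treated clone A1 replicate 1 or 2 or 3 (edgeR FDR = 0.061 to 0.12). Xaf1, a pro-apoptotic protein, was at 12.7, 13.8 and 15.8 CPM in untreated clone A1 against 3.46, 4.97 and 4.36 CPM (log2 fold change 1.73, SE 0.53, edgeR FDR = 0.013), and at 6.79, 9.52 and 11.5 CPM in clone A2, where it was not called without the replicate block and was higher with it (log2 fold change 1.09, SE 0.37, edgeR FDR = 0.019). The call in clone A1 was lost without untreated Lkb1-/- replicate 1 (edgeR FDR = 0.05). Parp14, an ADP-ribosyltransferase, was at 13.4, 18.7 and 18.7 CPM in untreated Lkb1-/- MEFs and 28.0, 46.2 and 52.5 CPM in clone A2 (log2 fold change 1.32, SE 0.49, edgeR FDR = 0.046), and the call was lost without untreated Lkb1-/- replicate 1 or 2 or 3 or untreated clone A2 replicate 2 or 3 (edgeR FDR = 0.077 to 0.13). Mx1, a GTPase against influenza viruses, was higher in IL-1β-treated clone A2, at 1.06, 0.871 and 1.00 CPM against 0.0480, 0.249 and 0.216 CPM (log2 fold change 2.47, SE 0.75, edgeR FDR = 0.014), a call lost without IL-1β-treated Lkb1-/- replicate 1 (edgeR FDR = 0.063).

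The receptor genes were lower in clone A1. Ifnar1 was at 106, 119 and 121 CPM untreated (log2 fold change −0.31, SE 0.10, edgeR FDR = 0.022) and 123, 128 and 145 CPM with IL-1β (log2 fold change −0.57, SE 0.10, edgeR FDR = 0.00015), and Ifnar2 was lower with IL-1β, at 38.8, 42.6 and 45.9 CPM (log2 fold change −0.63, SE 0.10, edgeR FDR = 3.5e-05). The call for Ifnar1 in untreated clone A1 was lost without untreated clone A1 replicate 1 or untreated Lkb1-/- replicate 2 or 3 (edgeR FDR = 0.061 to 0.11). In clone A2 the log2 fold changes of Ifnar1 were 0.04, SE 0.10 untreated and −0.15, SE 0.10 with IL-1β, neither called, although with the replicate block Ifnar1 was lower in IL-1β-treated clone A2 (log2 fold change −0.15, SE 0.05, edgeR FDR = 0.023). Tmem173 was at 62.4, 63.7 and 75.8 CPM in untreated clone A1 and 56.4, 70.0 and 75.8 CPM in clone A2, 0.25, SE 0.15 and 0.25, SE 0.15 on the log2 scale from Lkb1-/- MEFs, which did not pass the test. With IL-1β it was at 51.5, 57.4 and 63.3 CPM and 46.0, 56.3 and 67.1 CPM in the clones, and the log2 fold changes of 0.24, SE 0.15 and 0.22, SE 0.15 were not called. With the replicate block, which the numbers allow for clone A2 and for both clones with IL-1β, STING was higher in untreated clone A2 (log2 fold change 0.25, SE 0.05, edgeR FDR = 0.00041), in IL-1β-treated clone A1 (log2 fold change 0.25, SE 0.05, edgeR FDR = 0.00044) and in IL-1β-treated clone A2 (log2 fold change 0.21, SE 0.05, edgeR FDR = 0.0019).

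**Figure D5:**
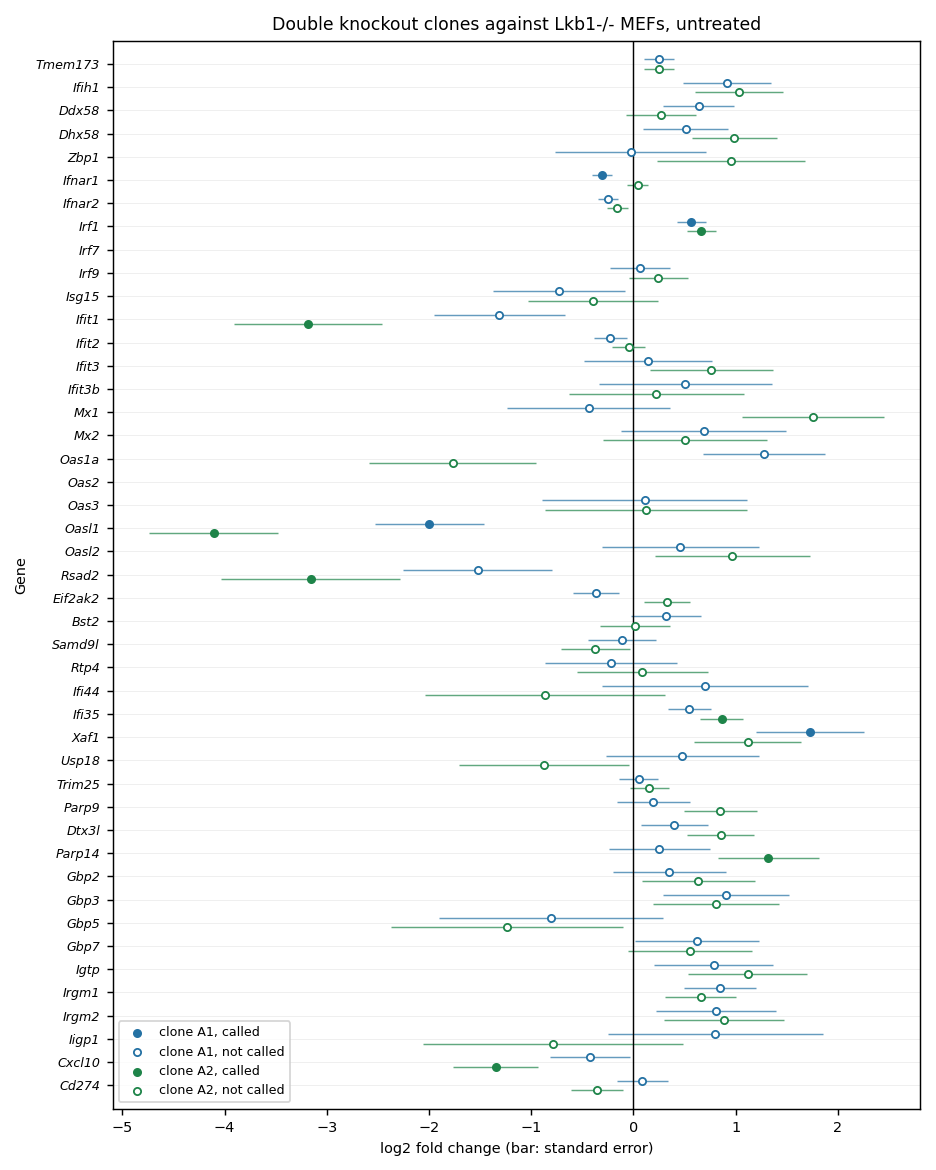
Log2 fold change of untreated clones A1 (blue) and A2 (green) against untreated Lkb1-/- MEFs with SE bars; filled points passed FDR under 0.05. Oasl1 lies to the left and Irf1 to the right in both clones, the filled points of Ifit1, Rsad2 and Cxcl10 lie to the left in clone A2, and most other points are open. Irf7 and Oas2 are not drawn because a group held no more than 3 counts per library.

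In an additional comparison, the clones differed from each other at 5 of 45 genes without treatment (3 higher and 2 lower in clone A2, against 15.8% and 16.7% of all genes) and at 6 with IL-1β (3 and 3, against 15.1% and 15.6%). Oas1a was at 0.756, 0.672 and 0.781 CPM in untreated clone A1 and 0.101, 0.0232 and 0.132 CPM in clone A2 (log2 fold change −3.05, SE 0.73, edgeR FDR = 0.0026), on either side of the 0.294, 0.278 and 0.333 CPM of Lkb1-/- MEFs. Oasl1 was lower (log2 fold change −2.11, SE 0.67, edgeR FDR = 0.018) and Mx1 higher (log2 fold change 2.19, SE 0.72, edgeR FDR = 0.023) in clone A2, and so were Eif2ak2, the RNA-activated kinase PKR (log2 fold change 0.69, SE 0.23, edgeR FDR = 0.024), and Ifnar1 (log2 fold change 0.35, SE 0.10, edgeR FDR = 0.011). With IL-1β, Oas1a (−2.81), Oasl1 (−2.07) and Cd274 (−0.74) were lower and Mx1 (2.81), Ifnar1 (0.42) and Ifnar2 (0.58) higher in clone A2 as log2 fold changes. The lower Oas1a and Oasl1 were not called by the newer quasi-likelihood method. Leaving out single libraries, untreated, ended the calls for Oasl1 without untreated clone A2 replicate 1 or 3 (edgeR FDR = 0.059 to 0.066), for Mx1 without untreated clone A1 replicate 1 or 2 or untreated clone A2 replicate 1 (edgeR FDR = 0.057 to 0.097), for Eif2ak2 without untreated clone A1 replicate 1 or 2 or untreated clone A2 replicate 2 or 3 (edgeR FDR = 0.061 to 0.078) and for Ifnar1 without untreated clone A1 replicate 1 (edgeR FDR = 0.067). With IL-1β it ended those for Oasl1 without IL-1β-treated clone A1 replicate 2 or IL-1β-treated clone A2 replicate 2 or 3 (edgeR FDR = 0.064 to 0.14) and Cd274 without IL-1β-treated clone A1 replicate 1 or IL-1β-treated clone A2 replicate 2 (edgeR FDR = 0.16 to 0.17). With the replicate block, which the numbers allow for the IL-1β-treated clones, 8 genes were higher and 8 lower in clone A2, against 22.5% and 21.9% of all genes.

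Set against untreated wild-type MEFs, clone A1 had 17 of 45 genes lower and 4 higher, against 25.1% and 30.3% of all genes, and clone A2 18 lower and 7 higher, against 27.9% and 32.7%. These comparisons share the wild-type libraries with that of Lkb1-/- MEFs. Oas3 was at 0.171, 0.480 and 0.643 CPM in clone A1 and 0.181, 0.648 and 0.506 CPM in clone A2, far below every wild-type library (log2 fold changes −5.14, SE 0.78 and −5.13, SE 0.78). Ifi44 was −3.94, SE 0.84 and −5.51, SE 0.96, and Rsad2 −4.62, SE 0.66 and −6.25, SE 0.77 on the same scale. Without both wild-type replicate 3 libraries these were −3.80 and −3.78 for Oas3, −2.21 and −3.78 for Ifi44 and −3.61 and −5.24 for Rsad2, all still called. Higher in both clones were Ifnar1 (0.47, SE 0.10 and 0.82, SE 0.10), Ifnar2 (0.78, SE 0.10 and 0.87, SE 0.10), Irf1 (1.15, SE 0.14 and 1.25, SE 0.14) and Gbp2 (2.74, SE 0.61 and 3.02, SE 0.62). Leaving out both wild-type replicate 3 libraries left 13 lower and 11 higher genes for clone A1, against 25.3% and 26.8% of all genes, and 15 and 14 for clone A2, against 27.7% and 29.4%.

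The other genes of the pathway were read from lists chosen with these data known. Of 14 nucleic acid sensing genes, 13 were tested. In untreated Lkb1-/- against wild-type MEFs 3 were higher and 8 lower (median −0.43), against 30.1% and 25.8% of all genes, and with IL-1β 3 and 9, against 30.2% and 27.1%. When both wild-type replicate 3 libraries were left out, 3 were higher and 8 lower in either comparison, against 26.1% and 26.7% of all genes untreated and 27.0% and 26.7% with IL-1β. Enpp1, the enzyme that degrades the STING ligand cGAMP outside cells, was at 1.76, 1.89 and 0.756 CPM in wild-type and 15.9, 22.2 and 29.3 CPM in Lkb1-/- MEFs (log2 fold change 3.91, SE 0.63, edgeR FDR = 1.9e-05). Ifi204, an AIM2-like DNA sensor, was lower (log2 fold change −1.14, SE 0.27, edgeR FDR = 0.0013), and Ikbke, a relative of TBK1, higher (log2 fold change 1.12, SE 0.14, edgeR FDR = 7.4e-07). Untreated clone A1 had 4 of the 13 above and 3 below Lkb1-/- MEFs, against 18.9% and 16.4% of all genes, and clone A2 5 and 2, against 17.1% and 15.1%. Cgas, the sensor upstream of STING, was at 35.6, 35.0 and 30.5 CPM in Lkb1-/- MEFs, 16.9, 16.6 and 14.6 CPM in clone A1 (log2 fold change −1.07, SE 0.07, edgeR FDR = 1.2e-09) and 13.7, 13.6 and 13.4 CPM in clone A2 (log2 fold change −1.31, SE 0.07, edgeR FDR = 8.9e-11). Aim2, which starts the inflammasome on cytosolic DNA, was at 5.82, 5.43 and 6.19 CPM in untreated Lkb1-/- MEFs, 0.0488, 0.0240 and 0.0230 CPM in clone A1 (2, 1 and 1 counts, 183-fold below Lkb1-/- MEFs with a 95% exact counting interval from 71.3 to 674, edgeR FDR = 3.3e-11) and 0.201, 0.116 and 0.220 CPM in clone A2 (log2 fold change −4.99, SE 0.31, edgeR FDR = 2.7e-10). Of the 13 genes, 1 was higher with IL-1β in wild-type MEFs and 1 in Lkb1-/- MEFs, Ikbke both times (1.19 and 0.82 on the log2 scale), and none in the clones. Over all genes, 1.53% and 2.65% were higher in wild-type and Lkb1-/- MEFs, and 1.2% and 2.81% in clones A1 and A2.

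Of 11 genes of interferon receptor signalling, 10 were tested. In untreated Lkb1-/- against wild-type MEFs 3 were higher and 3 lower (median −0.05), near the 30.1% and 25.8% of all genes, and with IL-1β 4 and 4, against 30.2% and 27.1%. The counts were 2 and 3, and 4 and 4, without both wild-type replicate 3 libraries. The shares of all genes in that fit were 26.1% and 26.7% untreated and 27.0% and 26.7% with IL-1β. Stat2, which carries the interferon signal to the nucleus, was lower in IL-1β-treated Lkb1-/- MEFs (−1.20), and Il10rb (1.12) and Ifngr2 (0.62), which lie beside Ifnar1 and Ifnar2 in the genome, were higher as log2 fold changes. In clone A1 against Lkb1-/- MEFs 3 were higher and 2 lower untreated, against 18.9% and 16.4% of all genes, and in clone A2 1 and 2, against 17.1% and 15.1%. Jak2 was lower in both (−0.92 and −0.42). Of 57 further interferon-stimulated genes, 52 were tested, and in untreated Lkb1-/- against wild-type MEFs 12 were higher and 19 lower, with IL-1β 11 and 30, and medians of −0.50 and −1.15, against 30.1% and 25.8% of all genes untreated and 30.2% and 27.1% with IL-1β. Leaving out both wild-type replicate 3 libraries, 16 were higher and 15 lower untreated, with a median of 0.17, against 26.1% and 26.7% of all genes, and 14 and 26 with IL-1β, with a median of −0.82, against 27.0% and 26.7%. Lgals3bp, a secreted glycoprotein, was at 55.3, 78.8 and 147 CPM in wild-type and 1.95, 3.02 and 2.71 CPM in Lkb1-/- MEFs (log2 fold change −5.19, SE 0.44, edgeR FDR = 1.6e-09), while Irf5 was higher (log2 fold change 3.61, SE 0.22, edgeR FDR = 1.2e-11). In untreated clones A1 and A2 against Lkb1-/- MEFs 10 of the 52 were higher in each, and 4 and 2 lower, against 18.9% and 17.1% of all genes higher and 16.4% and 15.1% lower. With IL-1β, 5 were higher in wild-type MEFs and 1 in each of the other genotypes, against 1.53% of all genes in wild-type and 2.65%, 1.2% and 2.81% in Lkb1-/- MEFs and clones A1 and A2, with Ccl5 among them in all 4 (2.36, 1.99, 2.44 and 5.59 on the log2 scale).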

How the data were processed

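RNA-seq of 24 libraries of mouse 3T3 fibroblasts was analysed, 3 for each of 4 genotypes with and without IL-1β. Per the labels and the study's methods, the authors sequenced 50-base paired ends, trimmed them with Trim Galore 0.6.0, aligned them with STAR 2.7.8a to GRCm38.p6 (mm10, GENCODE vM24) and deposited the raw gene counts that STAR writes for 3 strand settings, per library. The sources name different library kits, so the kit is not settled here. Between 95.5% and 96.0% of strand-specific counts lay in the second strand setting, which was used. Read pairs on no single gene (26.7% to 34.4%) were left out of library sizes. Pairs on exons of more than 1 gene were not counted, and multi-mapped reads were left out, which lowers genes with near-identical copies.

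Symbols and gene positions were taken from GENCODE M21, which uses the same build. The 47 genes and all other gene lists were chosen with earlier results of these data known. edgeR 4.0.16 in R 4.3.3 was run on all 24 libraries with TMM factors, group means and the quasi-likelihood F test (legacy form), after filterByExpr with a minimum of 10 counts and 15 in total. Genes passed at a Benjamini-Hochberg FDR under 0.05, and SE is the log2 fold change divided by the root of F. The test was checked on simulated counts. The common biological coefficient of variation was 0.129. CPM are counts per 1000000 of the library size (the counts on genes that passed the filter) multiplied by its TMM factor. Intervals of count ratios are 95% exact conditional binomial intervals.

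Values per library are given for Tmem173, Ifnb1, Ifnar1, Ifnar2, Irf1, Irf7 and Irf9, for up to 8 genes per comparison with the largest called difference, and for a few added after their values were seen (Isg15, Ddx58, Cxcl9 and Cxcl10, and levels in a clone where the gene was not called). Up to 4 genes were named from each other list, with Ccl5 and Ikbke added. Same-numbered libraries were taken as paired where each of 3 correlations of their deviations from group means was over 0.1. That held for the 4 IL-1β responses (0.130 to 0.589), Lkb1-/- against wild type with IL-1β, untreated clone A2 against Lkb1-/-, and every comparison among Lkb1-/- and the clones with IL-1β. The alternatives were a replicate block, only the groups compared, DESeq2 1.42.0, upper-quartile scaling, the newer quasi-likelihood method, other filters, unstranded counts, single libraries left out and, added after seeing the data, a block within genotype and both wild-type replicate 3 libraries left out. Some genes enter the counts of the gene and marker lists but are not reported here by name.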

Additional observations from a re-analysis of the deposited data

Results flagged for a closer look

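For 17 pairs of gene and comparison, the 2 genotypes compared moved in opposite directions with IL-1β in every replicate number. They were 8 of 45 genes between Lkb1-/- and wild-type MEFs, 3 between clone A1 and Lkb1-/- MEFs and 6 between clone A2 and Lkb1-/- MEFs, against 4.4%, 2.17% and 1.89% of all genes. None of these differences in response passed the edgeR test across all genes without a block (FDR from 0.79 to 1.00). With a block within each genotype, added after seeing the data, 11 of the 17 passed it, while 5.72%, 1.52% and 1.04% of all genes did in the 3 comparisons. The pairs were picked for moving the same way in every number, which this block favours. The values below are the differences in log2 response, the second genotype subtracted from the first.

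Between Lkb1-/- and wild-type MEFs, the IL-1β-treated library was above the untreated one in each wild-type number and below it in each Lkb1-/- number for Mx1 (−2.54), Oas1a (−1.16), Samd9l (−0.95), Irgm1 (−0.84), Eif2ak2 (−0.65), Dtx3l (−0.44) and Irf1 (−0.41). For Ifit2 it was the reverse (0.22). Mx1 was at low levels in both genotypes and Oas1a in Lkb1-/- MEFs, so their values rest on few counts. The ratios of Mx1 in wild-type MEFs were 19.9, 2.25 and 2.97 in numbers 1, 2 and 3. With the block within genotype, Dtx3l, Eif2ak2, Irf1, Irgm1, Mx1 and Samd9l passed.

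Between clone A1 and Lkb1-/- MEFs, Usp18 (−1.18) and Oasl2 (−0.31) were lower with IL-1β in each clone A1 number and higher in each Lkb1-/- number, and Irf1 (0.28) was the reverse. Usp18 and Irf1 passed with the block. Between clone A2 and Lkb1-/- MEFs, Mx2 (−1.44), Ifit3 (−1.34), Oasl2 (−0.96), Xaf1 (−0.73), Irf9 (−0.55) and Isg15 (−0.55) were lower with IL-1β in each clone A2 number and higher in each Lkb1-/- number. Of these, Irf9, Oasl2 and Xaf1 passed with the block.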

How the results depend on the processing

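Counts of called genes are given among the 45 tested, with the share of all genes called in the same fit in parentheses, except for the ranges over single libraries left out. Across 286 combinations of a count and an alternative, 216 stayed within 1.5 times the count in the report. Of 97 log2 fold changes among those named, 92 of them called, none changed sign in a called value over 1486 combinations, 59 lost a call and 28 gained one. Uncalled values could change sign. Ifit1 untreated and Oasl1 with IL-1β, both slightly negative and not called, were called higher in Lkb1-/- MEFs without both wild-type replicate 3 libraries.

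Against wild type, without a low-count filter 39 genes (Lkb1-/- untreated), 36 (clone A1) and 38 (clone A2) of 47 were called (26.7%, 26.6% and 29.4% of all genes), and with at least 10 counts in every library, which leaves fewer of the genes, 16 in clone A2 (66.0%). Leaving out 1 library gave 21 to 31 for Lkb1-/- untreated, 30 to 39 with IL-1β, 19 to 27 for clone A1 and 22 to 27 for clone A2.

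For untreated clone A1 against Lkb1-/- MEFs, 25 were called without a filter (16.4% of all genes), 18 with the replicate block (48.1%) and with only the groups compared (43.0%), 8 by DESeq2 (37.1%) and 7 with upper-quartile scaling (37.2%). For untreated clone A2, 28, 21 and 19 were called without a filter, with the block and with only these groups (15.1%, 45.9% and 28.5%). With IL-1β, these settings gave 27, 17 and 16 for clone A1 (16.9%, 49.1% and 36.7%) and 31, 20 and 15 for clone A2 (15.3%, 46.6% and 27.3%), and 10 counts in every library gave 5 for clone A2 (41.1%). Between the clones, they gave 19, 10 and 15 untreated (15.5%, 46.3% and 27.9%) and 24, 16 and 13 with IL-1β (14.3%, 44.4% and 26.7%), and for the untreated clones 10 counts in every library gave 2 (41.6%) and the newer quasi-likelihood method 3 (33.7%). Leaving out 1 library gave 3 to 4 and 5 to 10 for untreated clones A1 and A2 against Lkb1-/- MEFs, 5 to 6 and 7 to 9 with IL-1β, and 2 to 5 and 4 to 7 between the clones.

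For the response to IL-1β in wild-type, Lkb1-/-, clone A1 and clone A2 cells, 41, 10, 6 and 13 were called without a filter (2.59%, 3.88%, 2.47% and 4.47% of all genes), 34, 8, 5 and 7 with the replicate block (9.3%, 14.8%, 9.61% and 17.9%), 42, 17, 13 and 24 with a block within genotype (16.1%, 22.6%, 16.3% and 26.0%), and 1, 5, 2 and 1 with only the groups compared (2.52%, 5.57%, 3.0% and 1.54%). In wild-type MEFs, upper-quartile scaling and DESeq2 gave 5 (3.05% and 3.84%), unstranded counts 1 (1.81%), and leaving out both replicate 3 libraries 13 (1.27%). Leaving out 1 library gave 1 to 27, 2 to 2, 1 to 1 and 1 to 3 in the same order, the 27 without untreated wild-type replicate 3. The difference in response between Lkb1-/- and wild-type MEFs was called for 26 genes without a filter (0.943%), 5 with the block (1.77%), 33 with a block within genotype (5.72%) and 1 each with only these groups (0.421%), DESeq2 (0.74%), upper-quartile scaling (0.434%) and 10 counts in every library (0.549%). Between clones A1 or A2 and Lkb1-/- MEFs 1 gene each was called without a filter (0.383% and 0.185%), and 4 and 6 with the block within genotype (1.52% and 1.04%). Leaving out 1 library gave 0 to 1 for the first and 0 to 0 for the others. The cause of these changes was not tested, except that fewer genes or libraries enter where the setting says so.

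Same-numbered libraries correlated in their deviations by 0.0355 to 0.589 over 84 pairs, 69 of them over 0.1. Where the numbers did not pair the libraries, the block moved the untreated clone A1 against Lkb1-/- and clone A2 against clone A1 counts as given above. Beside those named here and in the report, the block moved no count by over 1.5 times. Depth limits Ifnb1, Cxcl9, and Irf7 and Oas2 in Lkb1-/- and clone libraries, which held few or no counts. Single libraries also lay below the level of 3 counts for other genes, such as Rsad2 and Oas1a in clone A2 and Mx1 in Lkb1-/- MEFs. Their log2 fold changes are uncertain to that extent.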

Other observations

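Among the further interferon-stimulated genes, Trim30a, a ubiquitin ligase gene, was at 1.06, 1.35 and 1.69 CPM in untreated Lkb1-/- MEFs, 0.0732, 0.0960 and 0.184 CPM in clone A1 and 0, 0.0926 and 0.132 CPM in clone A2. It was lower in both clones without overlap (log2 fold change −3.49, SE 0.87, edgeR FDR = 0.0032 in clone A1 and log2 fold change −4.18, SE 0.92, edgeR FDR = 0.0014 in clone A2). Tor3a, an ATPase of the endoplasmic reticulum, was at 91.3, 102 and 122 CPM in untreated wild-type and 10.9, 14.0 and 14.7 CPM in Lkb1-/- MEFs (log2 fold change −2.99, SE 0.19, edgeR FDR = 1.5e-11). Gbp4, a guanylate-binding protein gene like Gbp2, was at 0.0670, 0.0921 and 0.235 CPM and 0.724, 1.16 and 1.17 CPM (log2 fold change 2.97, SE 0.64, edgeR FDR = 0.00047), so both Gbp2 and Gbp4 were higher in Lkb1-/- MEFs.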
